A study of Rattus norvegicus with 16 samples.

Results

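Interleukins are secreted signals of the immune system, and the genes for them and for their receptors were followed in rat dorsal root ganglia (DRG), the ganglia that hold the cell bodies of sensory neurons, during the development of bone cancer. They were taken as all genes whose symbol begins with Il and a number, which gave 79 of the 21021 genes in the tables. By role these were 36 ligands, 36 receptor chains, 6 inhibitors or decoy receptors, and 1 enzyme. Tumor cell implantation (TCI) placed live Walker 256 rat mammary carcinoma cells in the marrow cavity of the left tibia of female Sprague-Dawley rats, and L3 to L5 ganglia of the same side from 1 rat were pooled as 1 sample. There were 4 samples each from sham rats and from TCI rats on days 1, 7 and 14. The study left out TCI day 1 sample 2 and TCI day 7 sample 3, so that 14 samples were compared here, with 3 each on days 1 and 7. Sham rats received saline according to the sample records but boiled tumor cells according to the methods, and all of them were sampled on day 14, so TCI days 1 and 7 differ from sham in time as well as in tumor. Since each sample is whole ganglion tissue, more cells of a type and more RNA per cell cannot be told apart.

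An interleukin acts by joining several receptor chains on the target cell, and many of the chains are shared between several ligands. The common gamma chain Il2rg and the gp130 chain Il6st are the best known of these shared chains. IL-1 family and IL-17 receptors signal through adaptor proteins to NF-kappaB, most of the others signal through Janus kinases and STAT proteins, and soluble inhibitors such as Il1rn and Il18bp keep some ligands from their receptors. In sensory ganglia, interleukins made by macrophages, T cells and glia are known to act on neurons and to take part in the generation of pain.

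Expression was given as FPKM, the count of sequenced fragments scaled by transcript length and by library size, so that levels may be compared between genes. Most ligand genes were at or near 0. Only 7 of the 36 ligands reached a mean of 1 FPKM in any group, against 21 of the 36 receptor chains, 2 of the 6 inhibitors and the enzyme Il4i1. The other 48 genes stayed below that level in all groups. Only 14 ligands were above 0 in every one of the 16 libraries, whereas 32 receptor chains were. Il2, Il22 and Il1f10 were listed at 0 in all 16. Of the classical T cell products, Il4 did not exceed 0.10 FPKM, Il13 0.28, Il17a 0.030 and Il21 0.73 in any library. Il10 was listed at 0 in all 4 sham samples, with a highest value of 0.46 FPKM elsewhere, and Il6 did not exceed 0.38. The number of genes with a mean of at least 1 FPKM was 23 in sham and 23 on TCI day 1, and then 31 on day 7 and 30 on day 14.

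Cell type marker genes were summed in each library. Neuronal marker genes summed to between 13834.13 and 17786.38 FPKM in the 14 samples, as the tissue label implies. Macrophage genes (8 listed) summed to between 24.03 and 45.33 FPKM in sham, 246.65 and 335.4 on day 7, and 121.34 and 458.65 on day 14. T cell genes (6 listed) summed to between 0.57 and 1.37 FPKM in sham, with up to 3 of them at 0, and to between 17.61 and 51.86 on day 7 and 13.21 and 48.61 on day 14. TCI day 14 sample 2 had the highest macrophage, T cell and NK cell sums of its group. The left-out TCI day 7 sample 3 held 18837.22 FPKM of skeletal muscle genes and sham sample 4 held 438.29, whereas no other library exceeded 18.74. Whether the marker sums varied together with the interleukin genes below was not tested, and neither was their part in the results.

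**Figure D1:**
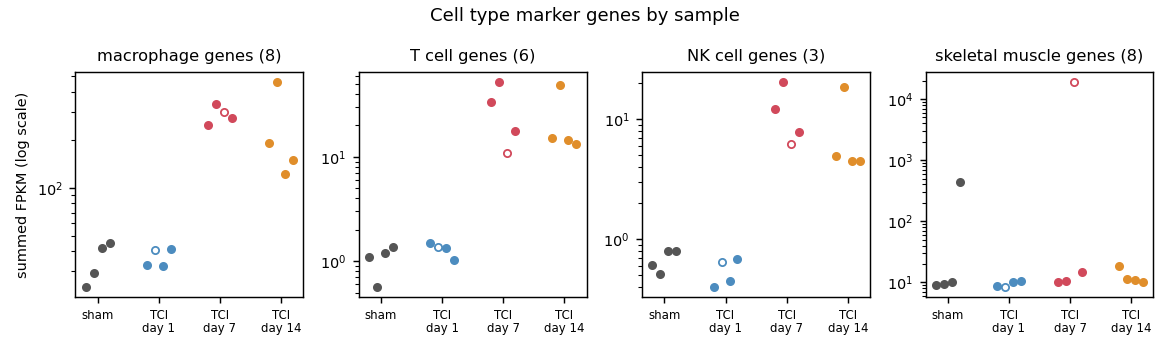
Summed FPKM (log axis) of marker genes for macrophages, T cells, natural killer (NK) cells and skeletal muscle in each of the 16 samples by group, with open points for the 2 left-out samples. Macrophage sums were 24.03 to 45.33 in sham and 246.65 to 335.4 on TCI day 7, and TCI day 14 sample 2 was the highest of its group in the first 3 panels.

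To ask when after implantation these genes changed, each TCI day was compared with sham by limma on log2(FPKM + 1), fitted on the 14023 genes that reached 1 FPKM in 3 samples or more, with Benjamini-Hochberg adjustment over all of them and a threshold of 0.05. All 31 genes that reached a group mean of 1 FPKM were tested. For 8 of them, Il10ra, Il12rb1, Il15ra, Il18, Il1b, Il1rn, Il21r and Il2rb, the sham mean was below 1 FPKM and the level was reached only after implantation, so their passing of the filter and their difference are not separate facts. The other 23 were already at 1 FPKM or more in sham.

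On day 1 none of the 31 genes differed from sham (background 0.0% of all genes higher and 0.0% lower), and none had an unadjusted p under 0.05, against 734 of all genes tested. Differences in log2(FPKM + 1) ran from -0.20 to 0.27 with a median of 0.017, and the smallest adjusted p was 0.939. On day 7, 18 of the 31 were higher than sham, where 14.5% of all genes were higher, and 0 were lower, where 3.45% were. The 18 comprised 3 ligands, both inhibitors, 12 receptor chains and Il4i1. Among the 23 genes already at 1 FPKM in sham, 11 were higher, and their median difference was 0.327 on the log2(FPKM + 1) scale, against 0.042 over all genes. On day 14, 15 were higher (background 11.9%) and 0 lower (background 3.21%), with 3 ligands, 1 inhibitor, 10 receptor chains and Il4i1 among the 15. Among the 23, 10 were higher, and their median difference was 0.203 against 0.025 over all genes. The study used as cut-offs a log2 fold change of at least 1 and an adjusted p of at most 0.001. With these applied to differences in log2(FPKM + 1), limma called 0 of the 31 on any day (background 1.83% higher on day 7 and 0.642% on day 14). This scale understates changes of low genes. Il4r on day 7 (limma, adjusted p = 0.000666) failed only the fold cut-off, with a difference of 0.90 but a ratio of mean FPKM of 2.113. Before adjustment, limma p was below 0.05 for 25 of the 31 on day 7 and 18 on day 14. Over all 14023 genes tested, these counts were 4378 and 4198.

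Both days shared 12 genes, namely Il10ra, Il17ra, Il17rc, Il18, Il18bp, Il21r, Il2rb, Il2rg, Il3ra, Il4i1, Il4r and Il6r. Another 6 passed only on day 7 (Il10rb, Il15ra, Il1b, Il1rn, Il33 and Il6st) and 3 only on day 14 (Il12rb1, Il15 and Il16). This does not by itself show that the days differ, since passing on 1 day and not on the other is no test of their difference. The day labels also changed with the processing. On day 7, Il12rb1 passed with all 16 samples or with 0.1 in place of 1 added to FPKM, and Il16 in a fit of day 7 and sham alone. On day 14, Il1b and Il1rn passed with 0.1 added. The 9 genes Il10ra, Il17ra, Il17rc, Il18, Il18bp, Il21r, Il2rg, Il4r and Il6r passed on both days whichever single sample of the groups compared was left out. Samples of the other groups, which also enter the shared spread, were not left out singly. Day 14 was then compared with day 7 directly. None of the 31 differed (background 0.00713% higher and 0.0927% lower, or 0.0143% lower by the cut-offs of the study). Before adjustment, limma p was below 0.05 for 2 of them and for 1396 of all 14023 genes tested. This comparison rested on TCI day 14 sample 2. Without it, 178 of all 13945 genes tested were lower on day 14 than on day 7 and 11 higher, against 13 and 1 of 14023 with it. Of the 31 genes, 4 were then lower. These were Il1rn by a log2(FPKM + 1) difference of -1.19 (adjusted p = 0.00117), Il18bp by -0.68 (adjusted p = 0.00906), Il2rg by -0.94 (adjusted p = 0.0291) and Il4r by -0.40 (adjusted p = 0.0332). Day 7 against day 1, which does not use sham, gave 15 higher genes (background 9.02%) and 0 lower (background 1.42%). Of these, 14 were also higher on day 7 than in sham, and the other was Il13ra1. The count for day 7 against day 1 fell to 7 without TCI day 7 sample 2.

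**Figure D2:**
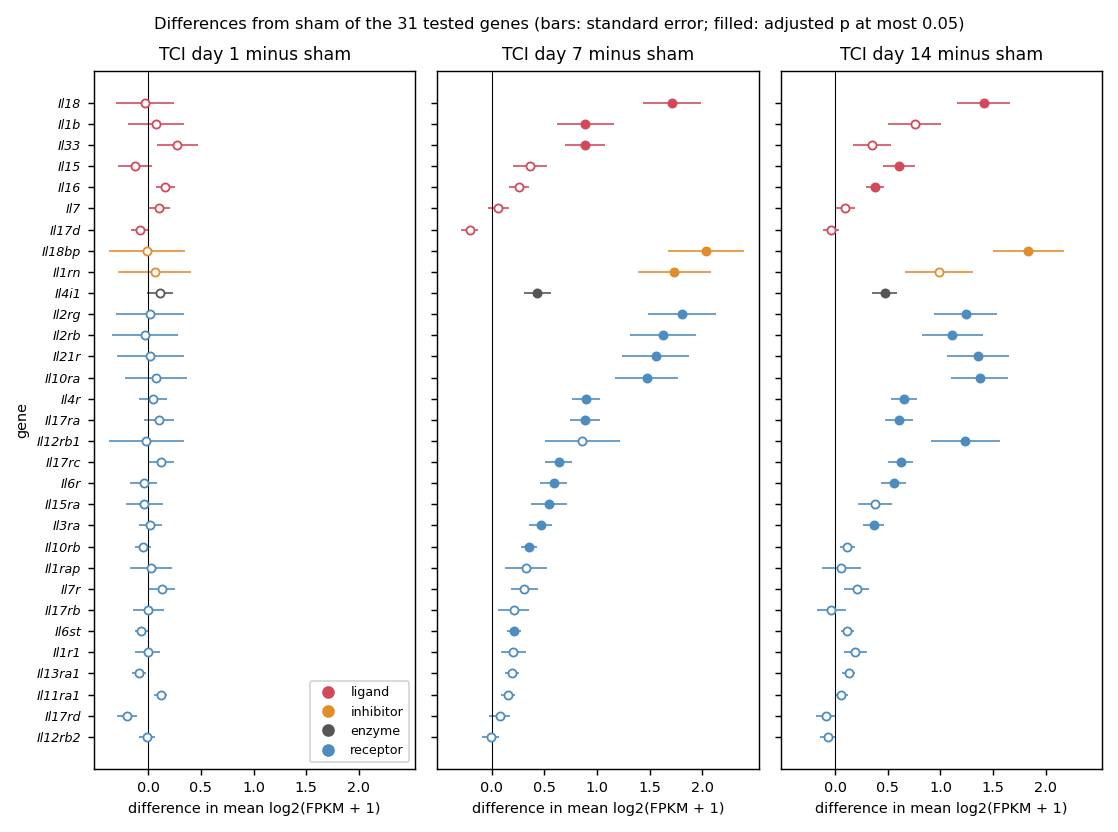
Difference of each TCI day from sham in mean log2(FPKM + 1) for the 31 tested genes, with bars for the standard error, colors for the role, and filled points for an adjusted p of at most 0.05. No point is filled on day 1, 18 are filled on day 7 and 15 on day 14.

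The ligands are described first. Summed over the 36 genes, ligand expression was between 47.85 and 52.41 FPKM in sham and between 52.01 and 56.21 on TCI day 1, and then between 69.25 and 81.45 on day 7 and between 50.9 and 83.43 on day 14. Il33, an alarmin of the IL-1 family that is stored in the nucleus and released by damaged cells, made up 43.08% to 47.16% of the sum in sham. Its FPKM was 20.91, 20.75, 22.72 and 22.58 in sham, 28.50, 23.51 and 27.69 on day 1, 45.49, 36.31 and 41.71 on day 7, and 26.80, 39.35, 17.44 and 32.83 on day 14. All day 7 samples lay above all sham samples, and day 14 spread across both, with sample 3 below every sham value. Il33 was higher on day 7 by a log2(FPKM + 1) difference of 0.89 ± 0.19 (SE; adjusted p = 0.00688), and on day 14 the difference was 0.35 ± 0.18 (adjusted p = 0.215). On day 1 the 3 samples were also above all sham samples, but the difference of 0.27 had an adjusted p of 0.974.

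Il18, a relative of IL-1 beta that is made as an inactive precursor, cleaved by caspase-1 and known for driving interferon gamma production, was below 1 FPKM in all sham and day 1 samples. Its sham values were 0.85, 0.38, 0.36 and 0.57 FPKM and its day 1 values 0.48, 0.33 and 0.69. On day 7 it reached 3.83, 4.78 and 3.49 FPKM, and on day 14 2.85, 6.94, 1.94 and 2.02. Neither late group overlapped with sham. The log2(FPKM + 1) difference was 1.71 ± 0.27 on day 7 (adjusted p = 0.00106) and 1.41 ± 0.25 on day 14 (adjusted p = 0.00338), the largest among the tested ligands on both days. Il1b, which encodes IL-1 beta, a central inflammatory cytokine that sensitizes nociceptors, was at 0.29, 0.11, 0.34 and 0.50 FPKM in sham and at 1.02, 1.5 and 1.77 on day 7. On day 14 it was at 0.67, 3.11, 0.52 and 1.24 FPKM. The groups did not overlap with sham on either day, although sample 3 of day 14 was only just above it. Il1b was higher on day 7 by 0.89 ± 0.27 on the log2(FPKM + 1) scale (adjusted p = 0.0367), a call that was lost when any of the 7 samples other than sham sample 4 was left out, and the day 14 difference was 0.76 ± 0.25 (adjusted p = 0.0589).

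Il15 and Il16 passed the test only on day 14. Il15, a survival factor for NK cells and memory T cells that is presented on Il15ra, was at 2.94, 2.73, 2.52 and 2.54 FPKM in sham, 4.51, 4.02 and 2.84 on day 7 and 4.28, 6.58, 4.05 and 3.90 on day 14. All day 14 samples exceeded sham, and 1 of the day 7 samples fell within the sham range. The log2(FPKM + 1) difference was 0.61 ± 0.15 on day 14 (adjusted p = 0.0173) and 0.36 ± 0.16 on day 7 (adjusted p = 0.149). Il16, a chemoattractant for CD4-bearing cells that is cut from a larger precursor, was at 8.77, 9.23, 8.10 and 8.84 FPKM in sham and at 13.79, 12.02, 9.98 and 11.17 on day 14, with no overlap. Its log2(FPKM + 1) difference was 0.38 ± 0.08 on day 14 (adjusted p = 0.0101) and 0.26 ± 0.09 on day 7 (adjusted p = 0.0687). With all 16 samples in the fit, neither Il15 nor Il16 passed on day 14. In a fit of day 7 and sham alone, Il16 passed on day 7.

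Il17d and Il7 were the expressed ligands that did not pass on any day. Il17d, a member of the IL-17 family with expression in nervous tissue, was the second ligand by level in sham, at 11.18, 10.91, 10.30 and 12.90 FPKM in sham. On day 7 it was at 10.05, 8.94 and 9.97 FPKM, all below sham, with a log2(FPKM + 1) difference of -0.21 ± 0.08 (adjusted p = 0.0991), and on day 14 at 11.26, 9.50, 11.85 and 11.24. Il7, a growth factor for lymphocytes, stayed between 1.30 and 1.98 FPKM in the sham samples and between 1.34 and 1.90 on day 14.

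**Figure D3:**
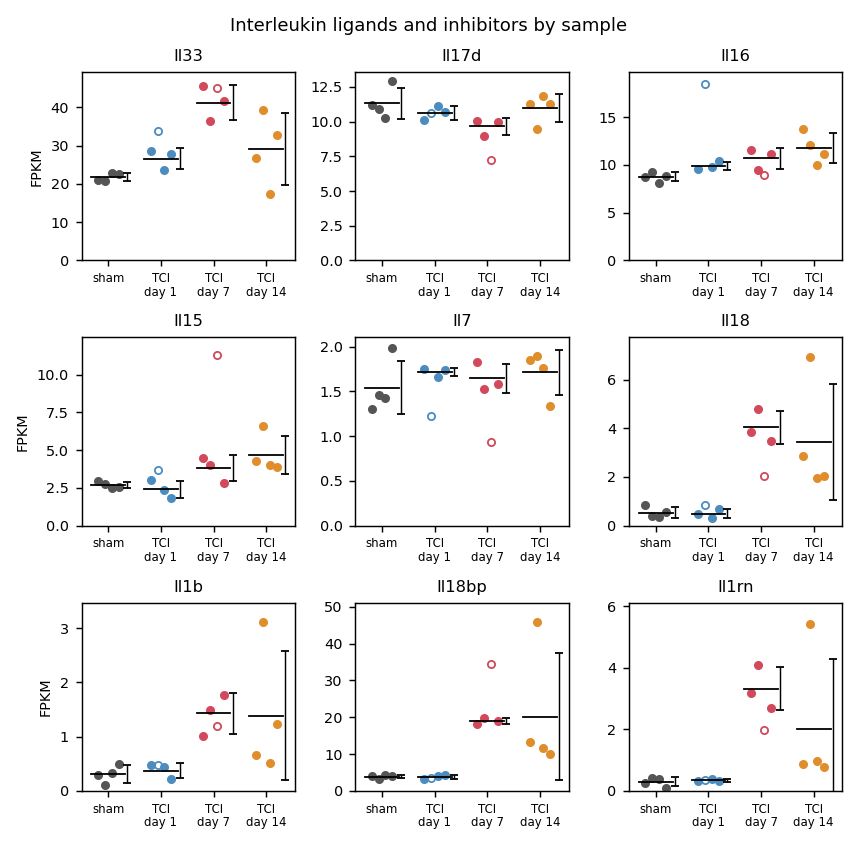
FPKM of the 7 expressed ligand genes and the inhibitors Il18bp and Il1rn in each sample by group, with lines for the mean and bars for the SD of the samples compared, and open points for the 2 left-out samples. Il18 did not exceed 0.85 FPKM in sham and was at 3.49 to 4.78 on TCI day 7, while Il17d stayed between 8.94 and 12.90 in all samples compared.

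The secreted inhibitors were next. Il18bp encodes the protein that binds IL-18 with high affinity and blocks it. It was at 3.94, 3.37, 4.29 and 4.03 FPKM in sham, 3.33, 3.94 and 4.33 on TCI day 1, 18.27, 19.90 and 19.10 on day 7, and 13.27, 45.99, 11.61 and 9.99 on day 14. Sham and day 1 overlapped, both late groups lay wholly above them, and day 14 sample 2 stood far above the rest of its group. For Il18bp the log2(FPKM + 1) difference was 2.04 ± 0.36 on day 7 (adjusted p = 0.00206) and 1.83 ± 0.34 on day 14 (adjusted p = 0.00361). Without day 14 sample 2, its day 14 difference was 1.36 (adjusted p = 6.09e-06). Il1rn, the IL-1 receptor antagonist, was at 0.26, 0.42, 0.40 and 0.11 FPKM in sham, 3.17, 4.10 and 2.71 on day 7, and 0.88, 5.44, 0.96 and 0.79 on day 14. Again there was no overlap, and 3 of the 4 day 14 samples lay below 1 FPKM. Il1rn was higher on day 7 by 1.73 ± 0.35 on the log2(FPKM + 1) scale (adjusted p = 0.0042), while the day 14 difference was 0.98 ± 0.32 (adjusted p = 0.0569). Without day 14 sample 2 the latter was 0.54, with a smaller spread, and passed (adjusted p = 0.0118).

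To see whether an inhibitor changed relative to its ligand, the difference between their log2(FPKM + 1) values was taken within each sample and compared with sham by a two-sided exact permutation test. For Il18bp over Il18 this log2 ratio was 1.68 ± 0.222 (SD, n = 4) in sham, 2.004 ± 0.154 (SD, n = 3) on day 7 and 2.105 ± 0.325 (SD, n = 4) on day 14. By the exact permutation test p was 0.0857 on each of the late days (0.1714 after adjustment over 6 tests), and the sign of the difference turned with a smaller pseudocount, 0.1 in place of 1, so no direction can be given. For Il1rn over Il1b the log2 ratio was -0.012 ± 0.326 (SD, n = 4) in sham, 0.832 ± 0.356 (SD, n = 3) on day 7 and 0.216 ± 0.409 (SD, n = 4) on day 14. With the pseudocount of 1, all day 7 ratios, from 0.422 to 1.046, lay above all sham ratios, from -0.434 to 0.355. This separation depended on the pseudocount. Sham sample 2 had 0.42 FPKM of Il1rn and 0.11 of Il1b, and day 7 sample 4 had 2.71 and 1.77. Without a pseudocount the ratio is thus larger in that sham sample. The exact permutation p for day 7 was 0.0571 (0.1714 adjusted), where 0.0286 is the smallest p that 3 samples against 4 can give. On day 14 the exact permutation p was 0.3714.

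Receptor chains were the larger group. Summed over 36 genes, they stood at between 117.25 and 127.47 FPKM in sham and between 121.56 and 123.36 on TCI day 1. The sums then lay between 163.9 and 185.28 on day 7 and between 138.13 and 198.82 on day 14. Of the 21 tested, 12 were higher on day 7, where 14.5% of all genes were, and 10 on day 14, where 11.9% were. Among the 16 receptor chains already at 1 FPKM in sham these counts were 8 and 6.

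The common gamma chain family, whose ligands are growth and differentiation factors of lymphocytes, held the largest difference among the receptors on day 7, that of Il2rg, or of Il2rb with a pseudocount of 0.1. Il2rg, the gamma chain itself, was at 1.76, 1.85, 2.27 and 2.21 FPKM in sham, 1.81, 2.40 and 1.97 on day 1, 10.02, 13.19 and 6.47 on day 7, and 5.06, 14.57, 4.44 and 4.01 on day 14. Every late sample was above every sham sample. Its log2(FPKM + 1) difference was 1.80 ± 0.32 on day 7 (adjusted p = 0.00207) and 1.24 ± 0.30 on day 14 (adjusted p = 0.0148). Il2rb, the signaling chain shared by the IL-2 and IL-15 receptors and found mainly on NK cells and T cells, was at 0.050, 0.070, 0.13 and 0.22 FPKM in sham, 2.33, 4.07 and 1.41 on day 7, and 1.19, 3.90, 0.70 and 0.86 on day 14. Sham values were thus close to 0, and no late sample came near them. The log2(FPKM + 1) difference of Il2rb was 1.62 ± 0.31 on day 7 (adjusted p = 0.00334) and 1.11 ± 0.29 on day 14 (adjusted p = 0.0216), the latter lost without sham sample 1 or sham sample 2. Il21r, the IL-21 receptor of activated lymphocytes, was at 0.27, 0.21, 0.32 and 0.38 FPKM in sham, 3.44, 3.76 and 1.61 on day 7, and 1.85, 6.00, 1.24 and 1.67 on day 14. Il21r showed the same order of groups, without overlap, and log2(FPKM + 1) differences of 1.56 ± 0.32 (adjusted p = 0.00458) and 1.35 ± 0.29 (adjusted p = 0.00864). The private chain Il15ra was at 0.43 to 0.73 FPKM in sham and 1.21 to 1.41 on day 7, a call (adjusted p = 0.0447) that was lost whichever of the 7 samples was left out. Il7r, the IL-7 receptor of lymphocytes, was at 5.08 to 7.09 FPKM in sham and 7.52 to 9.0 on day 7 (adjusted p = 0.113).

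Il10ra, the ligand-binding chain of the IL-10 receptor, which restrains macrophages, was at 0.35, 0.37, 0.66 and 0.67 FPKM in sham, 3.52, 4.21 and 2.08 on TCI day 7, and 2.41, 6.97, 1.73 and 2.09 on day 14. There was no overlap with sham, and the log2(FPKM + 1) difference was 1.47 ± 0.30 on day 7 (adjusted p = 0.00442) and 1.37 ± 0.28 on day 14 (adjusted p = 0.00607). Its partner Il10rb, which also serves other receptors of the family, was higher in sham to begin with, at 8.6, 7.63, 8.62 and 8.52 FPKM, and was at 11.46, 10.83 and 10.55 on day 7 and 9.34, 10.23, 8.45 and 8.49 on day 14. Day 7 lay above sham, and day 14 overlapped with it. The log2(FPKM + 1) difference of Il10rb was 0.36 ± 0.08 on day 7 (adjusted p = 0.00645) and 0.11 ± 0.07 on day 14 (adjusted p = 0.307). Il12rb1, a chain shared by the IL-12 and IL-23 receptors, was below 0.20 FPKM in each sham sample, and on day 14 at 1.26, 5.89, 0.81 and 0.73. Its day 14 difference of 1.24 ± 0.33 on the log2(FPKM + 1) scale (adjusted p = 0.0241) fell to 0.78 without day 14 sample 2 (adjusted p = 0.000848), and was not called without sham sample 1 or sham sample 2. The day 7 values were 1.05, 1.28 and 0.80 FPKM, above all sham values, with an adjusted p of 0.118. Its partner Il12rb2 stayed between 0.85 and 1.10 FPKM in sham and on both late days.

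Il4r, the chain through which IL-4 and IL-13 signal, was at 3.52, 3.04, 3.69 and 3.70 FPKM in sham, 3.66, 3.67 and 3.54 on day 1, 7.49, 7.91 and 6.71 on day 7, and 5.76, 8.65, 5.42 and 4.86 on day 14. The sham and day 1 samples formed 1 narrow band, and all late samples lay above it. The log2(FPKM + 1) difference was 0.90 ± 0.13 on day 7 (adjusted p = 0.000666) and 0.65 ± 0.12 on day 14 (adjusted p = 0.00444). Il13ra1, which pairs with it to bind IL-13, was at 10.16, 11.06, 11.91 and 11.22 FPKM in sham and 13.31, 12.94 and 12.21 on day 7. These groups did not overlap, but Il13ra1 did not pass against sham (log2(FPKM + 1) difference 0.19 ± 0.07, adjusted p = 0.0617). Il3ra, the IL-3-binding chain that works with the common beta chain, was at 6.31, 7.01, 8.19 and 6.99 FPKM in sham, 9.01, 10.40 and 11.28 on day 7, and 8.69, 10.36, 10.09 and 8.74 on day 14. The late groups again lay wholly above sham. Its log2(FPKM + 1) difference was 0.47 ± 0.11 on day 7 (adjusted p = 0.00921) and 0.37 ± 0.10 on day 14 (adjusted p = 0.0266), the latter lost without any 1 of 5 samples, day 14 samples 2 and 3 and sham samples 1, 2 and 4.

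In the IL-17 family, Il17ra, the chain common to its receptors, was at 6.27, 4.85, 7.24 and 6.74 FPKM in sham, 12.27, 12.64 and 12.21 on day 7, and 9.15, 13.62, 9.99 and 7.92 on day 14. Il17rc, its partner for IL-17A and IL-17F, was at 1.77, 2.05, 2.05 and 2.03 FPKM in sham, 4.04, 3.44 and 3.40 on day 7, and 3.51, 5.01, 2.80 and 3.24 on day 14. Neither chain overlapped with sham on either day. The log2(FPKM + 1) difference of Il17ra was 0.89 ± 0.14 on day 7 (adjusted p = 0.00105) and 0.61 ± 0.13 on day 14 (adjusted p = 0.00898). For Il17rc it was 0.64 ± 0.12 (adjusted p = 0.00375) and 0.62 ± 0.12 (adjusted p = 0.00395). The day 14 call of Il17ra was lost in a fit of day 14 and sham alone. The family chains Il17rb and Il17rd did not pass on any day, with adjusted p values of 0.364 and 0.65 on day 7.

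In the IL-6 family, Il6st encodes gp130, the shared signaling chain, and was the most abundant receptor gene. It was at 37.81, 38.68, 37.74 and 39.32 FPKM in sham, 38.65, 34.80 and 36.63 on day 1, 44.46, 45.40 and 43.65 on day 7, and 43.56, 45.88, 36.13 and 41.59 on day 14. Day 7 lay above sham by a small step, a log2(FPKM + 1) difference of 0.21 ± 0.07 (adjusted p = 0.0439), and this call was lost whichever of the 7 samples was left out. The IL-6-binding chain Il6r was at 1.32, 1.61, 2.35 and 1.84 FPKM in sham, 3.40, 3.56 and 2.54 on day 7, and 3.37, 3.52, 2.76 and 2.63 on day 14. Il6r was higher on both days, without overlap, by 0.59 ± 0.13 on the log2(FPKM + 1) scale on day 7 (adjusted p = 0.00696) and 0.56 ± 0.12 on day 14 (adjusted p = 0.00833). Il11ra1, the IL-11 receptor and the second receptor gene by level, was at 19.16, 20.25, 21.33 and 20.99 FPKM in sham, 23.37, 21.88 and 23.47 on day 7, and 20.41, 20.06, 23.20 and 21.75 on day 14. Day 7 was above sham in each sample, but the log2(FPKM + 1) difference of 0.16 ± 0.07 did not pass (adjusted p = 0.118).

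Neither of the expressed IL-1 receptor chains passed. Il1r1, the signaling receptor for IL-1, was at 2.15 to 2.95 FPKM in sham and 2.86 to 3.50 on day 7 (adjusted p = 0.266), and its accessory chain Il1rap, which also serves the IL-33 receptor, was at 2.98 to 4.63 in sham and 4.86 to 5.77 on day 7 (adjusted p = 0.293). Whether ligand and receptor differed in their change was not tested. The enzyme Il4i1, an amino acid oxidase secreted by myeloid cells that lowers T cell activity, was at 2.11, 1.70, 2.22 and 1.83 FPKM in sham, 2.90, 3.07 and 3.02 on day 7, and 3.0, 4.26, 3.06 and 2.29 on day 14. It was above all sham samples on both days. Its log2(FPKM + 1) difference was 0.43 ± 0.12 on day 7 (adjusted p = 0.0289), lost without any 1 of the 3 day 7 samples, sham sample 2 or sham sample 4, and 0.47 ± 0.12 on day 14 (adjusted p = 0.0165), lost without sham sample 2.

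**Figure D4:**
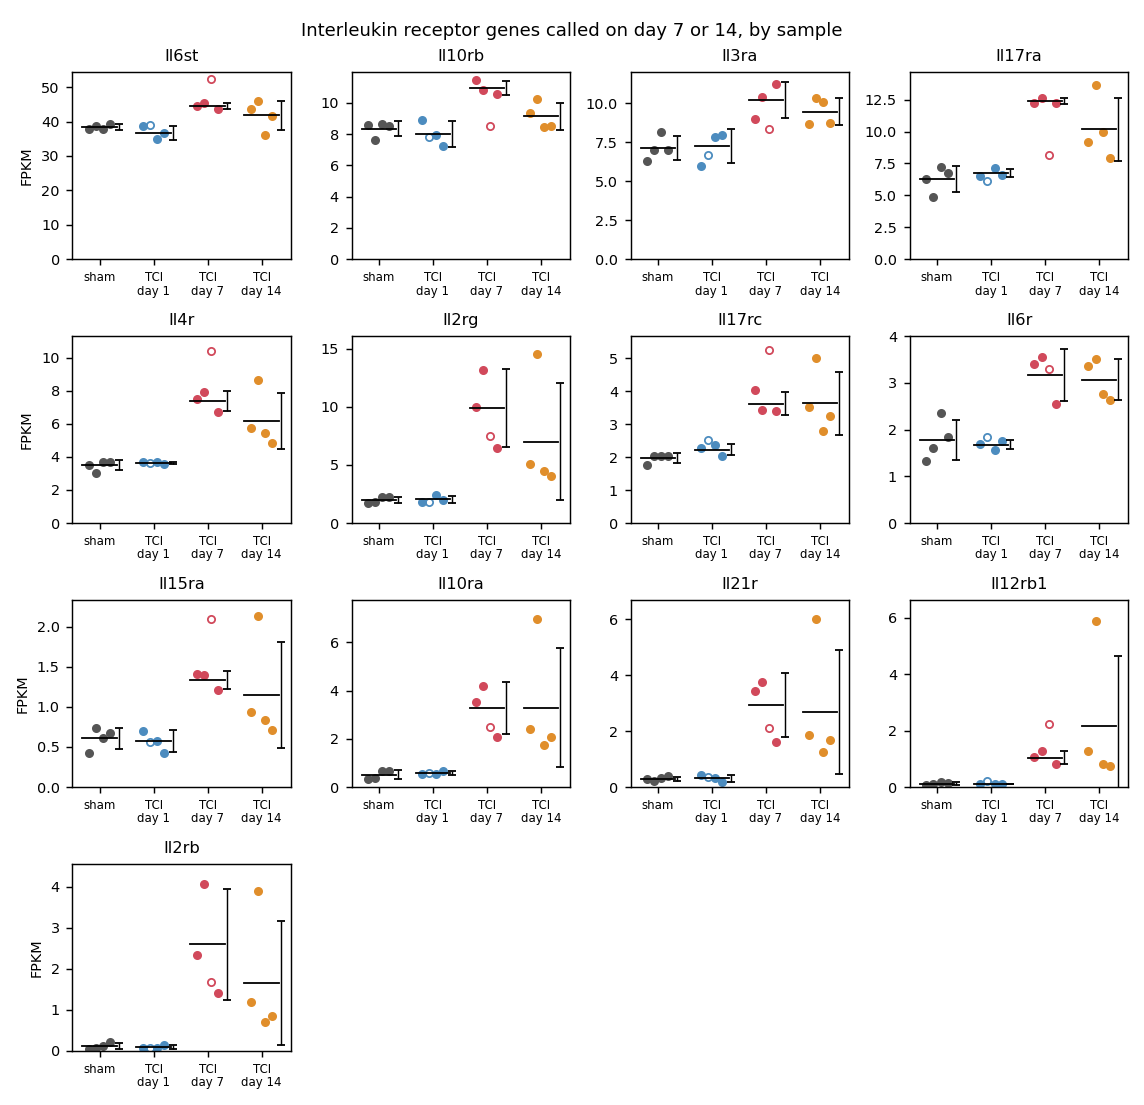
FPKM of the 13 receptor genes that passed the test on TCI day 7 or day 14, in each sample by group, with lines for the mean and bars for the SD of the samples compared, and open points for the 2 left-out samples. Il4r was at 3.04 to 3.70 FPKM in sham and 6.71 to 7.91 on day 7, and TCI day 14 sample 2 is the highest of its group in most panels.

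Of the 15 genes higher on day 14, TCI day 14 sample 2 was the highest of its group in 14. This library also had the highest sums of macrophage genes, at 458.65 FPKM against 121.34 to 192.13 in the other day 14 samples, and of T cell genes, at 48.61 FPKM against 13.21 to 15.26. Without it, 15 interleukin genes were higher on day 14 than in sham, as were 1303 of all 13945 genes tested. These were not the same 15, since Il1rn came in (limma, adjusted p = 0.0118) and Il3ra dropped out (adjusted p = 0.0727). The genes in both counts all had smaller differences without it, Il18 for example 1.09 in place of 1.41 on the log2(FPKM + 1) scale. This follows from the high values of that sample and is no separate result. On day 7, all 8 macrophage genes, 5 of 5 tested T cell genes and both tested NK cell genes were higher than sham (14.5% of all genes), as were 3 of 4 fibroblast genes and both tested neutrophil genes, whereas 5 of 8 neuronal genes were lower (3.45% of all genes). Fibroblast genes summed to between 295.32 and 416.76 FPKM in sham and 780.73 and 879.27 on day 7, and neutrophil genes to between 0.63 and 0.98 in sham and 4.71 and 19.18 on day 7. On day 14, 6 of the 8 macrophage genes, 5 of 5 tested T cell genes, both tested NK cell genes and 1 of 4 fibroblast genes were higher (11.9% of all genes), 0 of 2 neutrophil genes were, and 4 of 8 neuronal genes were lower (3.21% of all genes). B cell genes were too low to be tested, with sums of at most 0.82 FPKM in the samples compared.

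Of the 9 genes called on both days in every leave-one-out, Il10ra, Il18 and Il21r reached a mean of 1 FPKM only after implantation. Upstream sequences are shown for those of the 9 that have a RefSeq window, which leaves out Il17ra. Each is the window of 250 bases before the annotated start in RefSeq (GRCr8), written 5′ to 3′ on the strand of the gene. A RefSeq window was found for 63 of the 79 genes. Short motifs were searched on both strands, namely GGGANNTTCC for NF-kappaB, TTCNNNGAA for STAT proteins, GAAANNGAAA for interferon regulatory factors (IRF) and GAGGAA for PU.1, the master regulator of myeloid cells. Capitals mark a match, which was found in Il6r alone among these 8 windows, to the PU.1 letters.
Il18 (chr8:59801822-59802071, plus strand): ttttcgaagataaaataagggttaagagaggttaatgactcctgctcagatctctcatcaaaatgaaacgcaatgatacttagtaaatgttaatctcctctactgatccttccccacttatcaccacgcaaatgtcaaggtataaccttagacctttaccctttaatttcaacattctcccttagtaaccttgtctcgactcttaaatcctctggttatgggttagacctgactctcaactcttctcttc
Il18bp (chr1:165786956-165787205, minus strand): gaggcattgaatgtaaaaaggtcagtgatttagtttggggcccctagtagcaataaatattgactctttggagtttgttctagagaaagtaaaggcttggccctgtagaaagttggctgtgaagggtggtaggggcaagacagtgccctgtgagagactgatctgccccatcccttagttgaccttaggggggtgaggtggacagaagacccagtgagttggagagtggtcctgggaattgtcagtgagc
Il2rg (chrX:70439001-70439250, minus strand): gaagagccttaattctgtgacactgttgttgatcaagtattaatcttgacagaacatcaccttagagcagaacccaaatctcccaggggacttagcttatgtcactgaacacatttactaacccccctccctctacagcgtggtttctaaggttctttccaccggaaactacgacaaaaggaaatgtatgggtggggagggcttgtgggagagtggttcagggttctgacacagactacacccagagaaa
Il21r (chr1:189598503-189598752, plus strand): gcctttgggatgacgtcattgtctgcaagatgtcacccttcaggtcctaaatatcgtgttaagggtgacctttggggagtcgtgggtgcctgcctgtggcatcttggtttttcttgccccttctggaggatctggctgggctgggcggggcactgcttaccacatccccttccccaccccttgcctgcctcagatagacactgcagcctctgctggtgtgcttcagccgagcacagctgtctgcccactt
Il10ra (chr8:54474787-54475036, minus strand): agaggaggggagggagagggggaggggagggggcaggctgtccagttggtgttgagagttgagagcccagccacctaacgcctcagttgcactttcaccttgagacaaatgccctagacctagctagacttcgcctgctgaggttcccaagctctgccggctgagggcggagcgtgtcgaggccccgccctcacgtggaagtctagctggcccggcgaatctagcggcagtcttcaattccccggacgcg
Il4r (chr1:189545525-189545774, plus strand): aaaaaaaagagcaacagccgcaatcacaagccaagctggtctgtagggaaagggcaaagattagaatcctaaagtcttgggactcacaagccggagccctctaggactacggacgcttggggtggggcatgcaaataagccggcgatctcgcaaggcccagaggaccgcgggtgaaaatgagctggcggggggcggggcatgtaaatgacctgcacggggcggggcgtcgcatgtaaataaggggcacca
Il17rc (chr4:148174378-148174627, plus strand): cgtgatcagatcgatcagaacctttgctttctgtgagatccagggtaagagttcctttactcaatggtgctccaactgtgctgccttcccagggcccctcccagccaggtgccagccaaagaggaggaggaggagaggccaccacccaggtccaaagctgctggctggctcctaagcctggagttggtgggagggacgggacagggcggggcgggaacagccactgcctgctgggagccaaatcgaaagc
Il6r (chr2:177645210-177645459, minus strand): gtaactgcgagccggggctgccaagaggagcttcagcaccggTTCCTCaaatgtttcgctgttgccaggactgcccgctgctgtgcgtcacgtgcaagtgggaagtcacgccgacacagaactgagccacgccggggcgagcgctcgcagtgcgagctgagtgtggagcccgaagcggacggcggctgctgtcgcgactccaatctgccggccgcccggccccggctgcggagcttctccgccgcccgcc

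Among all 27457 genes with a window, 3.61% held the IRF letters, 24.79% those of PU.1, 8.19% those of STAT and 1.15% those of NF-kappaB. Among the 63 interleukin and receptor genes these letters were found in 8, 20, 6 and 2 genes, respectively. Of the 19 genes with a window that were higher on day 7 or day 14, 2 held the IRF letters (Il12rb1 and Il6st), 4 those of PU.1 (Il15, Il15ra, Il4i1 and Il6r), and 0 those of STAT or NF-kappaB. Where none was found, this says only that these letters are not in the window. A match is a description of the sequence and not a bound site.

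The genes through which interleukin receptors signal were counted from a list of 49 subunits, kinases, STAT proteins, adaptors and suppressors, of which 46 were tested. On day 7, 19 were higher (14.5% of all genes) and 0 lower (3.45%), on day 14, 17 were higher (11.9%) and 0 lower (3.21%), and on day 1, 0 and 0. Of those with the smallest adjusted p on day 7, 7 are described. Casp1 and Pycard, which form the inflammasome that matures IL-1 beta and IL-18, were at 0.792 ± 0.265 and 1.68 ± 0.400 FPKM in sham (SD, n = 4) and at 5.72 ± 0.789 and 9.62 ± 3.0 on day 7 (SD, n = 3). Their log2(FPKM + 1) differences were 1.91 ± 0.26 (adjusted p = 0.000405) and 1.96 ± 0.28 (adjusted p = 0.000515). Csf2rb, the common beta chain that pairs with Il3ra, rose from 0.212 to 3.20 FPKM (adjusted p = 0.000536). Jak3, the kinase bound to Il2rg, rose from 2.87 to 6.37 FPKM (adjusted p = 0.00136), and Tyk2, another kinase of that family, from 4.98 to 7.05 (adjusted p = 0.00176). The others were Ebi3, the shared subunit of IL-27 and IL-35 (adjusted p = 0.000219), and Ptpn6, a phosphatase that dampens cytokine signaling (adjusted p = 0.00162).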

How the data were processed

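RNA from L3 to L5 ganglia was sequenced in 16 samples. The authors deposited FPKM per gene with 2 decimals and no counts. The paper reports read numbers, but the counts of each gene are unknown, so no counting error can be given. The labels' processing notes name CASAVA 1.4 and Bowtie2. The methods name HISAT and Bowtie2 for mapping and RSEM for expression. The genome build is not given in the sources used here. Relative depth, estimated from 86 low genes, was between 0.904 and 1.196. Genes and lists were chosen with earlier results of these data known. Genes reaching 1 FPKM in a group mean of the 14 samples were named by role, with every sample shown for those that passed, and up to 8 pathway genes were named by adjusted p. Differences were tested with limma 3.58.1 (R 4.3.3) on log2(FPKM + 1), which understates changes of low genes, in 1 fit of 14 samples and 4 groups with an intensity trend, and were adjusted by Benjamini-Hochberg over 14023 genes. The code was tested on simulated data. Alternatives were all 16 samples, 2-group fits, other filters, a pseudocount of 0.1, quantile normalization, no trend, a replicate block and other cut-offs. Each sample was also left out in turn, for the comparisons that use its group. The block with all 16 samples was added after seeing the data. Each limma p-value sets a difference between groups against a spread between samples that was pooled over all 4 groups. The spread on day 14 therefore also enters the SE of the other days. No pair of samples shared over 2.59% of its values above 0. Some genes that the rule leaves out are not reported here.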

Additional observations from a re-analysis of the deposited data

Results flagged for a closer look

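In each group of 4 samples, the highest or lowest value of an expressed gene was set against the range of the group. Of 124 such groups, 20 (16.1%) held a sample whose gap to the nearest other exceeded Dixon's critical value, where chance gives about 1 in 20. TCI day 14 sample 2 held 9 of the 20, each time as the highest of its group. Its values were 6.97 FPKM for Il10ra, 5.89 for Il12rb1, 6.58 for Il15, 2.13 for Il15ra, 45.99 for Il18bp, 5.44 for Il1rn, 6.0 for Il21r, 3.9 for Il2rb and 14.57 for Il2rg. The other 3 samples of that day were at 1.73 to 2.41 FPKM for Il10ra, 9.99 to 13.27 for Il18bp and 4.01 to 5.06 for Il2rg.

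TCI day 7 sample 3, which was left out of the comparisons, stood apart in 3 genes, with 34.49 FPKM of Il18bp, 8.15 of Il17ra and 2.09 of Il12rb2. TCI day 1 sample 2, also left out, stood apart with 18.46 FPKM of Il16 and 1.22 of Il7. The remaining 6 were small steps at low or even levels. Sham sample 2 was lowest for Il10rb (7.63 FPKM), sham sample 4 for Il12rb2 (0.94) and sham sample 1 for Il17rc (1.77). TCI day 1 sample 4 was lowest for Il1b (0.22 FPKM) and highest for Il2rb (0.14), and TCI day 1 sample 1 was lowest for Il4i1 (2.01).

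In TCI day 7 sample 3, 3 genes exceeded every one of the other 15 samples by over 1.5 times. Il15 was at 11.33 FPKM against at most 6.58 elsewhere, Il12rb2 at 2.09 against at most 1.3, and Il20rb at 1.63 against at most 0.92. This library also held 18837.22 FPKM of skeletal muscle genes, and the part of these in the 3 values was not tested.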

How the results depend on the processing

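The files hold FPKM without counts, so precision at low levels is unknown, and 3 or 4 samples a group limit what a test can show. No alternative turned the direction of a gene called on day 7 or 14 against sham. Quantile normalization lost Il15ra, Il1b, Il4i1 and Il6st on day 7, and Il12rb1, Il2rb, Il3ra and Il4i1 on day 14. On day 7, the fit with no filter lost Il15ra, Il1b and Il6st, the replicate block Il1b and Il6st, and no trend Il6st. On day 14, the 2-group fit lost Il17ra and Il4i1, and all 16 samples Il15 and Il16. Others were gained, as Il12rb1 and Il13ra1 on day 7 with all 16 samples and Il1b and Il1rn on day 14 with a pseudocount of 0.1. The number of interleukin and receptor genes higher than sham was 18 on TCI day 7 and 15 on day 14. With a filter at a mean of 5 FPKM these counts were 8 and 6 because fewer genes were tested, with a log2 fold change of at least 1 as well they were 7 and 7, and with the cut-offs of the study 0 and 0. Day 7 against day 1 (15 higher) gave 8, 7 and 0, respectively. Both fold cut-offs were applied to differences in log2(FPKM + 1). Genes lower on day 7 numbered 0 in the comparisons reported, 1 with all 16 samples (Il17d), 1 with the block and all 16 samples, and 2 under quantile normalization (Il17d and Il12rb2). That normalization also gave 1 lower gene on day 14 (Il12rb2), and it moved the median of all genes on day 7 from 0.0416 to -0.0699 on the log2 scale, and the split of higher to lower genes from 2028 against 484 to 1341 against 2320. With 1 sample left out in turn, the higher genes numbered 14 to 15 on day 7, 11 to 19 on day 14, and 7 to 15 for day 7 against day 1, and the lower genes on day 14 against day 7 numbered 0 to 4.

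Sample numbers did not pair the samples. Deviations of same-numbered samples correlated between -0.113 and 0.256 over 24 pairs, and 2 of 16 samples correlated best with their own number. The fit with the replicate block gave 17 higher genes on day 7, 16 on day 14 and 12 for day 7 against day 1.

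The sign turned for genes that passed on neither day. On day 7, all 16 samples gave 0.140 for Il12rb2, -0.046 for Il17rd and -0.048 for Il7 on the log2(FPKM + 1) scale, the same with the block. Quantile normalization gave -0.022 for Il17rb, -0.158 for Il17rd, -0.018 for Il1r1 and -0.169 for Il7 on day 7, and -0.053 for Il1rap and -0.064 for Il7 on day 14. With 1 sample left out, Il12rb2 ran from -0.037 to 0.002 on day 7, and on day 14 Il17d ran from -0.083 to 0.019, Il17rb from -0.141 to 0.052 and Il1rap from -0.105 to 0.276. For Il18bp over Il18, all 16 samples gave -0.084 on day 1, and a pseudocount of 0.1 gave -0.479 on day 7 and -0.289 on day 14. The sham mean was 0.54 FPKM for Il18 and 3.91 for Il18bp, so a pseudocount of 1 alters Il18 by the larger factor. Why the other signs turned was not tested. With 1 sample left out the day 1 ratio ran from -0.077 to 0.113 for Il18bp over Il18 and from -0.155 to 0.108 for Il1rn over Il1b.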

Other observations

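Genes of the family below 1 FPKM in all groups were tested only in a fit with no filter on low values, where 10.4% of all genes were higher on TCI day 7 than in sham and 7.92% on day 14. On day 7, 5 of 15 such receptor genes, 1 of 4 inhibitors and 1 of 25 ligands were higher than sham, and on day 14, 5 receptor genes, 0 inhibitors and 0 ligands were. No gene was lower on either day. The receptor genes were Il1rl1, Il18r1, Il17re, Il20rb and Il27ra on both days, and they are named after their values were seen. Il1rl1, the receptor for IL-33, had a log2(FPKM + 1) difference of 0.68 on day 7 (limma, adjusted p = 0.00213) and 0.40 on day 14 (adjusted p = 0.0271). Il18r1, the binding chain of the IL-18 receptor, had 0.54 (adjusted p = 0.00234) and 0.29 (adjusted p = 0.046).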
